A study of Mus musculus with 4 samples.

Results

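Macrophages and other leukocytes were followed through 5 genes, Tyrobp, Cd68, Cd53, Lyz2 and Ms4a7, which 7 of the 30146 probes of the array measure (5 of 16039 named genes). The 5 were taken by gene symbol. They were chosen by the tissue and stage ratios of these same columns, with earlier results known, so the values of these genes are descriptions and none is a test. RNA came from mouse dental follicle (DF), a sac of connective tissue that encloses the forming tooth, and from dental papilla (P), the mesenchyme inside it that forms dentin and pulp, each at the stages that the labels call E17 and PN2. The labels disagree once, with DF PN3 given as the tissue on an array titled DF PN2, and the title was followed for every DF PN2 value. Strain, sex, exact age, genotype and the number of animals behind an RNA sample are not given in the sources used here, and no treatment is named for these tissues. Text on whole embryos and on cultured embryonic stem cells stands beside the tissue names in the labels, and the tissue names were followed.

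The 4 arrays set follicle beside papilla at E17 and at PN2, and PN2 beside E17 in either tissue, but a tissue and stage has identical signals wherever it recurs. The data are therefore 4 distinct signal columns, DF E17, P E17, DF PN2 and P PN2, and the files do not show whether each comes from 1 channel or from several merged. There is no replicate, no p-value was computed, and a difference between columns cannot be set against the spread between animals. Signals are given after quantile normalisation, in arbitrary units, and "past 2-fold" means a log2 ratio over 1 in size, the limit that the labels name. A gene was counted as measured where its highest normalised signal reached 100, which 14238 genes and all 5 of the genes above did. Differences among the probes of a single gene, 0.58 (SD of the log2 ratio, 6749 genes) at E17 and 0.76 at PN2 for follicle over papilla, 0.47 for the stages in the follicle and 0.64 in the papilla, served as the technical error (between-probe SD). They hold no variation between animals.

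The lists of tissue markers were chosen with earlier results of these data known, so they describe the columns and do not test the labels. Of 10 measured follicle markers, 9 were higher in the follicle past 2-fold at E17 and 10 at PN2, against 10.5% and 12.8% of all genes. Of 10 papilla and odontogenic markers 8 and 7 were lower, against 10.1% and 13.4% of all genes. At PN2 1 of these, Lhx8 (log2 ratio 1.29), was higher in the follicle. Xist, which is transcribed from the inactive X chromosome of female cells, had a normalised signal of 19.7 in the E17 follicle. It had 3846 in the E17 papilla, 2890 in the PN2 follicle and 827 in the PN2 papilla. The Y chromosome genes Eif2s3y and Uty had log2 ratios of 3.54 and 1.72 for follicle over papilla at E17. For PN2 over E17 they were at 2.64 and 1.39 in the papilla and at -1.19 and -1.56 in the follicle. Marks of sex thus differed among the columns of both tissues, and their part in other differences was not tested. Median signals before normalisation ran from 205 in P PN2 to 352 in P E17. In bulk tissue, fewer cells of a type and less RNA per cell cannot be told apart.

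Macrophages are phagocytes of the myeloid lineage that settle in nearly every tissue, and in the follicle of rodent teeth cells of the same lineage also fuse into the osteoclasts that open the eruption path. The product of Tyrobp, also called DAP12, is a membrane adaptor that carries the signal of receptors such as Trem2 on macrophages, osteoclasts and natural killer cells to the kinase Syk. Cd68 encodes macrosialin, a glycoprotein of the lysosome-associated membrane protein (LAMP) family found in macrophages and osteoclasts. Cd53 encodes a tetraspanin present on most leukocytes, Lyz2 the bacteriolytic enzyme lysozyme of macrophages and granulocytes, and Ms4a7 a membrane protein of the Ms4a family that is used as a marker of macrophages.

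Tyrobp and Cd68 were high in the follicle at both stages. Tyrobp had a normalised signal of 10544 in the E17 follicle, 792 in the E17 papilla, 10840 in the PN2 follicle and 1345 in the PN2 papilla. Both follicle columns thus lay far above both papilla columns and beside each other: the follicle stood 13.3-fold above the papilla at E17 and 8.06-fold above it at PN2, and the follicle of PN2 differed from that of E17 by a log2 ratio of 0.04. Cd68 had 1466 in the E17 follicle, 119 in the E17 papilla, 1077 in the PN2 follicle and 204 in the PN2 papilla. The follicle was 12.3-fold higher at E17 and 5.27-fold higher at PN2, with a log2 ratio between the follicle stages of -0.44, less in size than the between-probe SD.

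Cd53 and Lyz2 were also higher in the follicle, and higher at PN2 than at E17 within it. Cd53 had a normalised signal of 359 in the E17 follicle, 44.0 in the E17 papilla, 779 in the PN2 follicle and 54.5 in the PN2 papilla, which puts both papilla columns near 37.9, the 5th percentile of all normalised signals. Its follicle signal stood 8.16-fold above the papilla at E17 and 14.3-fold above it at PN2, and rests on 1 probe, as do those of Tyrobp and Cd68. Lyz2 had a mean over its 2 probes of 728 in the E17 follicle, 197 in the E17 papilla, 3825 in the PN2 follicle and 453 in the PN2 papilla. DF PN2 was by far the highest column of Lyz2, 5.25-fold above DF E17 and 8.45-fold above P PN2, and its 2 probes had log2 ratios of 2.29 and 2.50 between the follicle stages.

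Ms4a7 departed from the other 4 genes in the papilla. Its mean signal over 2 probes was 544 in the E17 follicle and 55.0 in the E17 papilla. At PN2 it was 1402 in the follicle and 917 in the papilla, so that only P E17 was low. The P E17 signal lay near 37.9, the low level named above for Cd53. Ratios of Ms4a7 over P E17 therefore divide by a dim signal, and their size is less firm. The follicle was 9.90-fold above the papilla at E17, but at PN2 its log2 ratio over the papilla was 0.61, within 2-fold, or 1.08 without normalisation. Between the stages the papilla signal was 16.7-fold higher at PN2, the 3rd highest ratio among 14238 genes, with log2 ratios of 4.38 and 3.74 for the 2 probes. Without normalisation this log2 ratio was 2.88, where the median of all genes lay at -0.80.

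**Figure D1:**
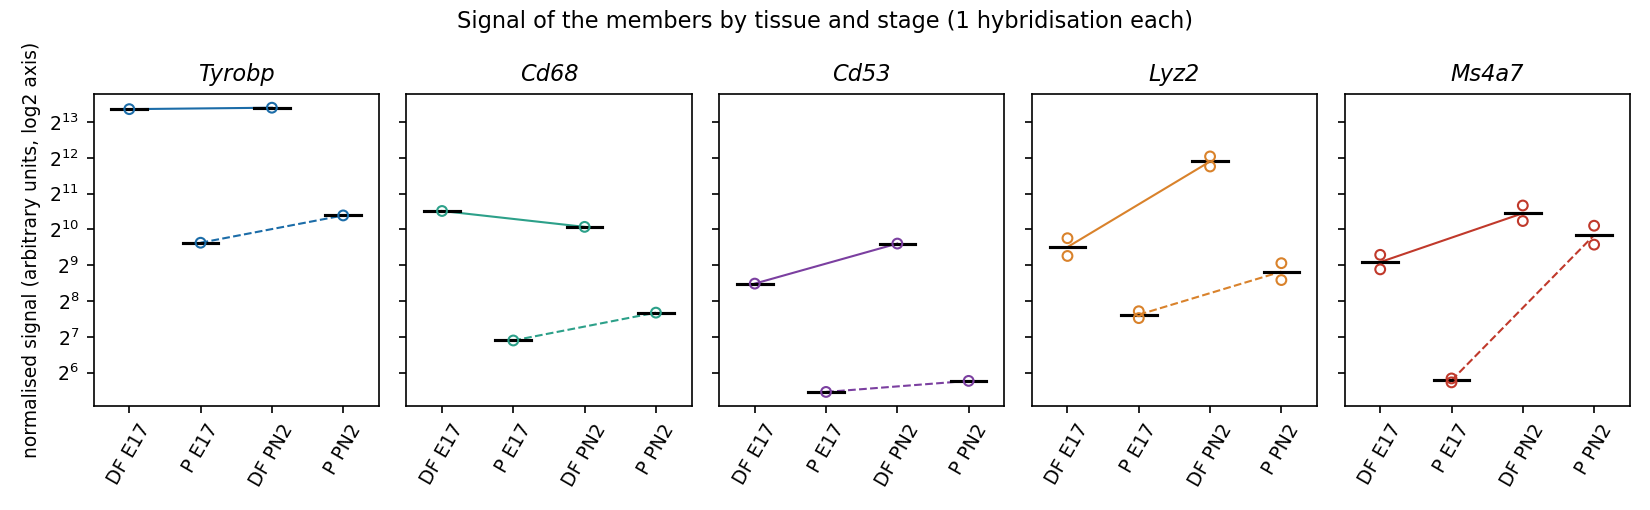
Normalised signal (arbitrary units, log2 axis) of the 5 genes in the 4 columns. Circles are probes, black bars the gene's mean over probes, solid lines join the follicle stages and dashed lines the papilla stages. The follicle lines lie above the papilla lines, by a log2 ratio of 3.73 for Tyrobp at E17, while the papilla line of Ms4a7 climbs from 55.0 to 917.

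Where RefSeq (GRCm38.p6) gives a promoter window, the 250 bases before the start of transcription are shown for genes whose signals moved together or apart, all on the minus strand. Windows were matched for 4 of the 5 genes, Tyrobp being the one without. Capitals mark the motifs GAGGAA, which holds the core bound by ETS factors such as PU.1 (the product of Spi1), TTGCNNAA of C/EBP factors, TATAAA and TGACTCA of AP-1, each searched on both strands. Cd68 lies at chr11:69666171-69666420, Cd53 at chr3:106790150-106790399, Lyz2 at chr10:117282273-117282522, its neighbour Lyz1, a second lysozyme gene, at chr10:117292869-117293118, and Ms4a7 at chr19:11336147-11336396.
Cd68: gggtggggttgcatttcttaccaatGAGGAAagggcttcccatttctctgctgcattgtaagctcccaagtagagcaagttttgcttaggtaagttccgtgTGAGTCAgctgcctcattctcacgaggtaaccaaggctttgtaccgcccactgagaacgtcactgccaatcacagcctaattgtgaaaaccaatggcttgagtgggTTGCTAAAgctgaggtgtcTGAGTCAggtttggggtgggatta
Cd53: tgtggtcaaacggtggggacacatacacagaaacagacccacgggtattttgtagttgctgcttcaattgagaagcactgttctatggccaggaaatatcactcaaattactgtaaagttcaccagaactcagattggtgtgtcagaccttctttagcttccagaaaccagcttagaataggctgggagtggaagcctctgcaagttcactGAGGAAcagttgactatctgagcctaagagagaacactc
Lyz2: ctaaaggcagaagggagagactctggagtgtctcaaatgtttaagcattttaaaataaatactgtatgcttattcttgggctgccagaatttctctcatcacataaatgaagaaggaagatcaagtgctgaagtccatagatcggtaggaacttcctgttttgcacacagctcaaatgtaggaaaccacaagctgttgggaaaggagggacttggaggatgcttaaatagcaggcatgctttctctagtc
Lyz1: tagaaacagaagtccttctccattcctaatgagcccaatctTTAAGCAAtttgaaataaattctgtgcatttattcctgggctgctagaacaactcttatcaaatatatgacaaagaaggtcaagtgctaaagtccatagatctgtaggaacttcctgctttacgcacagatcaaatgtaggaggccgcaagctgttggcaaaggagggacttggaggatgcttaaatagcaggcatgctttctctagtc
Ms4a7: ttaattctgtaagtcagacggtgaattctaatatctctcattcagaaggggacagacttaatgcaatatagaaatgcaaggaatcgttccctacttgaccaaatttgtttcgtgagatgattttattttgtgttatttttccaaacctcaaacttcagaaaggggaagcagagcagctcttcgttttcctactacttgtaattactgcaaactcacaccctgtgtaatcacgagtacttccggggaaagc
GAGGAA was found before the start in Cd68 and in Cd53, 225 and 39 bases from it, and 23.3% of 32851 mouse windows hold it there. Cd68 also held TTGCNNAA, 43 bases before the start, against 9.56% of windows, and TGACTCA at 149 and 24 bases, against 4.46%. In the 50 bases after the start, GAGGAA began at base 30 in Cd68, 9 in Cd53 and 44 in Ms4a7. These letters were not found in the window of Lyz2, before the start of Ms4a7 or at its second listed start, while Lyz1 held TTGCNNAA 209 bases before its start. TATAAA was in none of these windows, against 13.6% of all windows. Lyz2 and Lyz1 shared 200 of 252 aligned bases (79.4%), whereas other pairs of these stretches shared 43.8% to 47.2%.

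The order of the 4 columns was DF PN2, DF E17, P PN2 and P E17 for Tyrobp, Cd53 and Lyz2. For Tyrobp the first pair did not differ beyond the between-probe SD, and neither did the papilla columns of Cd53. Cd68 had DF E17 above DF PN2 by less than that SD, and Ms4a7 had P PN2 above DF E17. Taking each gene's 4 log2 signals less their mean, the most alike pair was Tyrobp and Cd68, at a Euclidean distance of 0.50, and the least alike Cd53 and Ms4a7, at 3.04. All 4 distances from Ms4a7 were 2.21 or more, against 2.10 at most among the other 4 genes.

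At E17 all 5 genes were higher in the follicle than in the papilla past 2-fold, from 1.89 (Lyz2) to 3.73 (Tyrobp) on the log2 scale. Over all genes, 10.5% were higher past 2-fold, 10.1% lower and 20.6% either way, and since these ratios helped to choose the genes nothing is read from that contrast. Other genes of the lineage were divided. Of 21 measured macrophage surface genes 8 were higher and 2 lower, with a median log2 ratio of 0.68 against -0.07 over all genes. The highest were Csf1r, the receptor of the macrophage growth factors, at 3.13, the endotoxin receptor gene Tlr4 at 2.63 and the integrin gene Itgam at 2.05. The lowest were Vsig4 at -1.20, the scavenger receptor gene Marco at -1.13 and the folate receptor gene Folr2 at -0.66.

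Of 19 macrophage products 11 were higher in the E17 follicle and 0 lower (median 1.19), led by the chemokine gene Ccl9 (5.11), the complement gene C1qc and cathepsin C (Ctsc, 3.08). C1qc was at 3.10, or 2.69 with its papilla signal of 28.5 raised to 37.9, the 5th percentile. The 3 lowest were Il1b (-0.68), Ccl6 (-0.15) and Pf4 (0.38). Pan-leukocyte genes had 15 of 33 higher and 0 lower. Rac2, a GTPase of blood cells, stood at 3.42, the lysosomal Laptm5 at 3.10 and the oxidase subunit gene Ncf4 at 3.02, while Was (-0.97), Cd84 (-0.65) and Vav1 (-0.45) lay on the papilla side. The median of the pan-leukocyte list was 0.50, or -0.11 without normalisation, a setting that puts the median of all genes at -0.32. Among 12 myeloid transcription factors, Spi1, which encodes the master regulator PU.1 of the myeloid lineage, was highest at 3.47, followed by Maf (2.90) and Zeb2 (1.51).

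Osteoclast markers shared the tissue difference: 12 of 14 were higher in the follicle at E17 (median 2.80) and 12 at PN2 (median 2.83). Between the follicle stages 0 of 14 passed 2-fold (median 0.12). Tyrobp (0.04) and Cd68 (-0.44) also stayed within 2-fold there, whereas Lyz2, Ms4a7 and Cd53 did not. Between the papilla stages 2 osteoclast markers were higher and 2 lower at PN2 (median -0.16). Their summed normalised signal was 88931 in the E17 follicle, 9205 in the E17 papilla, 99751 in the PN2 follicle and 9255 in the PN2 papilla, so that the papilla sums of the stages were nearly equal. No marker was at 0, and the minimum signal of a column before normalisation was 13.3 to 15.9. Osteoclasts express Tyrobp, Cd68, Csf1r and Spi1, and their part in the follicle signal of these genes was not tested.

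At PN2 the follicle exceeded the papilla past 2-fold for 4 of the 5 genes, all but Ms4a7, against 12.8% of all genes higher, 13.4% lower and 26.2% either way. Cd53 had the highest log2 ratio, 3.84, followed by Lyz2 at 3.08, Tyrobp at 3.01 and Cd68 at 2.40. In the pan-leukocyte list 22 of 33 were higher, with a median of 1.51 and 0 lower, with the granule proteoglycan gene Srgn at 3.79 (3.26 with its papilla signal raised to 37.9), Rac2 at 3.47 and Ptprc, the gene of the common leukocyte antigen CD45, at 3.30. Cd84 (-0.34), Cytip (-0.20) and Was (-0.10) were lowest. Macrophage surface genes had only 4 of 21 higher and 1 lower (median 0.28, against -0.07 over all genes), with Tlr4 (3.17, or 3.02 with its papilla signal raised to 37.9), Csf1r (2.90) and Itgam (2.73) highest and the scavenger receptor gene Stab1 (-1.39), Marco (-0.77) and Folr2 (-0.73) lowest. Macrophage products had 14 of 19 higher and 0 lower (median 1.40), with Ccl9 at 4.73, Pf4 at 3.68 and Ctsc at 3.45.

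**Figure D2:**
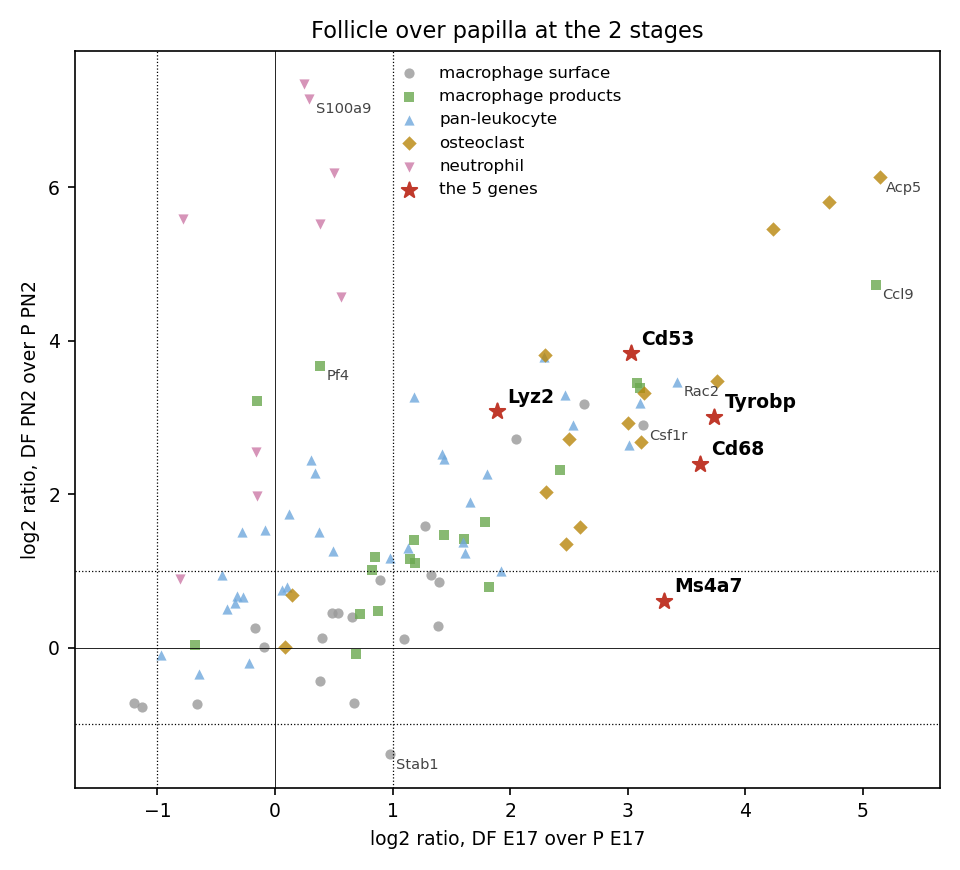
Log2 ratio of follicle over papilla at E17 (x axis) and PN2 (y axis) for the 5 genes (stars) and the measured genes of 5 lists; dotted lines mark 2-fold. Tyrobp, Cd68 and Cd53 lie among osteoclast and leukocyte genes at upper right, Ms4a7 at 3.31 and 0.61, and neutrophil genes such as S100a9 near 0 at E17 and high at PN2.

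Between the stages in the follicle, 3 of the 5 genes were higher at PN2 past 2-fold, Lyz2 (2.39), Ms4a7 (1.37) and Cd53 (1.12), and none was lower. Over all genes 3.83% were higher, 4.06% lower and 7.89% either way. Without normalisation Cd53 stood at 0.98, within 2-fold. In the pan-leukocyte list 13 of 33 were higher there, against 0 lower, and the median was 0.80 (-0.01 over all genes), led by the oxidase gene Cybb (2.89), the signalling gene Vav1 (2.67) and Sash3 (2.26, or 1.90 with signals under 37.9 raised to it), with Cd44 (-0.52), Lcp2 (-0.36) and Cd84 (-0.07) lowest. Of the macrophage products 6 of 19 were higher and 0 lower, with Pf4 at 3.01, Ccl6 at 2.79 and the complement gene C1qb at 1.29, while Ccl9 stood at -0.50. Of the macrophage surface genes only Clec10a (1.30) and Itgam (1.09) of 21 passed 2-fold, and the median was 0.22, or -0.11 without normalisation, beside -0.23 for all genes.

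Neutrophil markers set the follicle at PN2 apart: 9 of 9 measured were higher there than in DF E17 (median 4.96), and their summed signal was 878 in the E17 follicle, 873 in the E17 papilla, 76227 in the PN2 follicle and 1264 in the PN2 papilla. The 3 highest were S100a9 (8.26), Retnlg (7.32) and lactoferrin (Ltf, 7.05). Among monocyte markers 5 of 9 passed 2-fold upwards, with a median of 1.25 and 0 lower: the chitinase-like gene Chil3 at 2.38, Plac8 and the sialophorin gene Spn at 1.94 each, and Fn1 lowest at -0.24. B cell markers had 5 of 8 higher (median 1.24; Vpreb1 3.23) and dendritic cell markers 5 of 8 higher and 1 lower (median 1.22; H2-Aa 2.10, Cd74 2.04, Clec9a -1.32). T and NK cell markers had 1 of 6 higher and 1 lower, and erythroid markers 4 of 5 higher and 1 lower (median 2.04). Lyz2 is also a gene of granulocytes and Cd53 of most leukocytes, and the part of neutrophils, B cells and blood in their PN2 signal was not tested.

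In the papilla, 2 of the 5 genes were higher at PN2 past 2-fold, Ms4a7 (4.06) and Lyz2 (1.20), against 6.55% of all genes higher, 5.09% lower and 11.6% either way. Cd68 (0.78), Tyrobp (0.76) and Cd53 (0.31) stayed within 2-fold, and without normalisation these 3 were at -0.16, 0.07 and -0.72, and Lyz2 at 0.32. That setting puts the median of all genes at -0.80 and Ms4a7 at 2.88, and the share of higher genes among those past 2-fold at 2.49% in place of 56.3%. Macrophage surface genes had 4 of 21 higher and 0 lower, with Stab1 at 2.17, the haemoglobin scavenger receptor gene Cd163 at 1.77 and the lectin gene Clec10a at 1.69. Marco (-0.80), Tlr4 (-0.65) and Vsig4 (-0.36) were lowest.

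Other papilla genes of the lineage that were higher at PN2 included 5 of 19 macrophage products, led by Aif1 (1.63), the lysosomal protease genes Lgmn (1.49) and Ctss (1.37), with 0 lower. Among transcription factors Klf4 (2.06), the interferon regulatory factor gene Irf5 (1.80) and Spi1 (1.27) were higher, and 0 lower. Only 3 of 33 pan-leukocyte genes passed 2-fold, Vav1 (1.28), Ptpn6 (1.24) and Arhgdib (1.21). The list medians were 0.58 for surface genes, 0.57 for products and 0.17 for pan-leukocyte genes, and -0.35, -0.23 and -0.70 without normalisation, beside -0.80 for all genes. In that setting Stab1 (1.35) and Klf4 (1.39) remained past 2-fold, while Aif1 was at 0.94, Irf5 at 0.87, Cd163 at 0.66 and Spi1 at 0.19. Neutrophil markers in the papilla had 1 of 9 higher, S100a9 at 1.39.

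**Figure D3:**
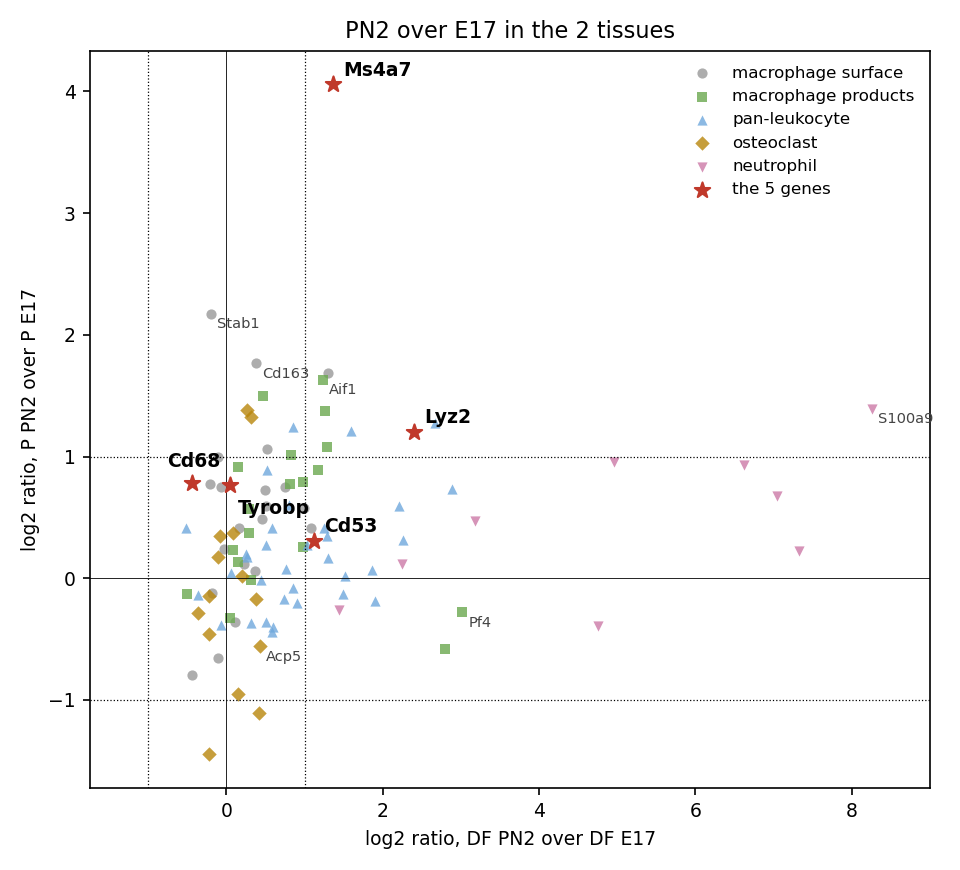
Log2 ratio of PN2 over E17 in the follicle (x axis) and in the papilla (y axis) for the 5 genes (stars) and the measured genes of 5 lists; dotted lines mark 2-fold. Ms4a7 stands alone at 4.06 on the papilla axis, Lyz2 is higher in both tissues, and neutrophil genes extend to 8.26 on the follicle axis.

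The log2 ratio of follicle over papilla was lower at PN2 than at E17, past 2-fold towards the papilla, for Ms4a7 (change -2.69) and Cd68 (-1.22), and higher, towards the follicle, for Lyz2 (1.19). Over all genes 9.14% passed 2-fold towards the papilla and 8.12% towards the follicle, 17.3% in all. Tyrobp (-0.72) and Cd53 (0.81) stayed within 2-fold, but Cd53 was at 1.17 with median centring and Cd68 at -0.94. The change of Ms4a7 was the 62nd lowest of 14238 genes. Of the pan-leukocyte genes 11 of 33 passed 2-fold towards the follicle and 0 towards the papilla. Of 21 macrophage surface genes 0 did so towards the follicle and 3 towards the papilla, but 3 and 1 without normalisation. The 3 towards the papilla were Stab1 (-2.37), Cd163 (-1.39) and the F4/80 gene Adgre1 (-1.11), which was at 1.39 at E17 and 0.28 at PN2. Stab1 was at 0.98 at E17 and -1.39 at PN2, each past the between-probe SD. Cd163 was at 0.68 and -0.72, the latter less in size than the SD of 0.76. Without normalisation Cd163 was at -0.0071 at E17.

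A list of receptor, adaptor and signalling genes around Tyrobp, not all particular to it, had a different balance at the 2 stages. Of 15 measured, the E17 follicle had 4 above the papilla and 3 below it past 2-fold, and the PN2 follicle 8 above and 0 below. Over all genes 10.5% were higher and 10.1% lower at E17, and 12.8% and 13.4% at PN2. Among its receptor genes at PN2, Trem3 and Oscar were above past 2-fold. Trem1 (0.90), Trem2 (0.88), Cd300lb (0.34) and Pilrb1 (-0.13) stayed within it. The list median was 0.37 at E17 and 2.13 at PN2. Without normalisation the E17 median was -0.38, beside -0.32 for all genes. Fcer1g, the adaptor that like Tyrobp carries an activating motif, was at 2.46 and 2.48, and the osteoclast receptor gene Oscar at 2.29 and 3.82. Btk, a kinase gene, was at 0.37 and 2.38, the phospholipase gene Plcg2 at 0.66 and 2.21, and the lipid phosphatase gene Inpp5d at 1.44 and 2.46. The kinase gene Syk was 2.15-fold higher in the follicle at E17, but at 0.51 on the log2 scale without normalisation, 0.79 with median centring and 0.97 with the deposited log ratios, all within 2-fold. At PN2 it was at 2.61, or 2.19 with its papilla signal of 28.2 raised to 37.9.

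Among the receptors, Trem2 was at 0.89 and 0.88, within 2-fold, but at 1.06 and 1.15 with the deposited log ratios and at 1.24 at PN2 without normalisation. Trem3 was at -1.05 and 2.13, from normalised signals of 25.8 in the E17 follicle, 53.3 in the E17 papilla, 147 in the PN2 follicle and 33.6 in the PN2 papilla, so that only the PN2 follicle reached 100, and with signals under 37.9 raised to it the ratios were -0.49 and 1.96. The second adaptor gene Hcst, whose product is DAP10, was at 0.28 and 2.93. In the papilla, Syk (-1.57), Btk (-1.12) and Oscar (-1.11) were lower at PN2 past 2-fold, though Btk was at -0.39 with its signal raised to 37.9 and Oscar at -0.98 with the deposited log ratios. There 0 of 15 were higher, while Tyrobp was at 0.76. Pilrb1 (-1.48) and Cd300lb (-1.07) were on the papilla side at E17.

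Within the Ms4a family 7 of 18 genes were measured, and Ms4a6b and Ms4a6c passed 2-fold where Ms4a7 did between the tissues at E17 and between the papilla stages. At E17 the follicle was higher past 2-fold for Ms4a7 (3.31), Ms4a6b (2.13) and Ms4a6c (1.08), with Ms4a6d at 0.97. At PN2 none was higher: Ms4a6b was at 0.93, Ms4a6d at 0.80 and Ms4a6c at -0.25, which is 0.24 without normalisation. The papilla was higher at PN2 than at E17 for Ms4a7 (4.06), Ms4a6c (1.76) and Ms4a6b (1.15), and without normalisation Ms4a6c stood at 1.04 and Ms4a6b at 0.09. With its E17 papilla signal raised to 37.9, Ms4a6b stood at 0.91. Ms4a6c had 1401 in the E17 follicle, 662 in the E17 papilla, 1881 in the PN2 follicle and 2240 in the PN2 papilla, so its highest column was P PN2. Ms4a4b and Ms4a4c stayed within 2-fold in all 4 comparisons, and Ms4a8a was lower in the follicle at PN2 than at E17 (-2.36) with a signal of 23.9 in the PN2 follicle. The B cell gene Ms4a1 was dim in every column, at 95.9 or less.

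Lyz1 followed Lyz2 in every comparison, at 1.60 for follicle over papilla at E17, 2.85 at PN2, 2.18 for the stages in the follicle and 0.93 in the papilla. It was the gene nearest to Lyz2 in pattern, at a distance of 0.36 among 13558 candidates. The 2 genes are close copies and lie next to each other on chromosome 10, and probe sequences were not used here, so signal of 1 copy on the probe of the other cannot be told apart. Of the other lysozyme family genes, Lyzl4 stayed within 2-fold throughout and Lyzl6 was on the papilla side at E17 (-1.11).

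Relatives of Cd68 and Cd53 showed how far each family shared the pattern. Lamp1 was at 0.82 for follicle over papilla at E17 and 2.76 at PN2, with the papilla at PN2 lower than at E17 (-1.41), Lamp2 at 0.75 and 0.50, and Lamp3 at -0.28 and -0.62. Of 26 measured tetraspanins 12 were higher in the follicle at E17 and 0 lower, and 12 higher and 1 lower at PN2. Cd53 was the highest of them at both stages. Cd9, which many cell types express, was at 2.00 and 2.01, and the lysosomal Cd63 at 1.34 and 1.52. The leukocyte tetraspanin gene Cd37 was at 0.12 and 1.74, and Tspan33 at 0.37 and 2.67, with the follicle higher at PN2 than at E17 for both (1.49 and 2.70).

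The genes nearest to each of the 5 in pattern, by Euclidean distance, are named next, with the likeness measured over 4 columns. Beside Tyrobp stood Dpep1 (distance 0.15), Lepr, Cryab, Pmaip1 and Mme, beside Cd68 Gpx3 (0.18), Mme, Cldn1, Atp8b1 and Selenop, and beside Cd53 Glipr1 (0.21), L1cam, Pamr1, Rasgef1c and Plekha4. Lyz2 was followed by Lyz1, Gjc3, Arhgdib, H2-Aa and Hp, and Ms4a7 by Phospho1 (0.75), Irx5, Pdgfc, Sgms2 and Gcnt1. Without normalisation 3 of the 5 nearest were shared for each gene, and 4 for Cd53. The mean of the 5 profiles had Rab7b (0.30), Car3, Rnf43, Chchd10, Ncf4, Nr4a1, Spi1, Sbspon, Ttyh2 and Arhgdib nearest, 6 of these 10 also without normalisation.

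Myeloid growth factors and chemoattractants were higher in the follicle in part. The list is wider than signals of macrophages and also holds Kitl, Flt3l, Cxcl1 and Tnfrsf11b (-0.93 at E17). Of 15 measured, 5 were higher and 1 lower at E17, against 10.5% and 10.1% of all genes. At PN2 4 were higher and 0 lower, against 12.8% and 13.4% of all genes. The E17 median of 0.32 was -0.17 without normalisation, beside -0.32 for all genes. The chemokine gene Cxcl12 was highest at both stages (2.60 and 3.34), with the osteoclast-forming ligand gene Tnfsf11 (1.93) and Kitl (1.91) next at E17, and Ccl4 (1.92) and Il34 (1.66), a ligand of the Csf1r receptor, next at PN2. Csf1, the other ligand of that receptor, which was named after its values were seen, was at 1.53 and 0.94. Ccl2, a monocyte attractant, was on the papilla side at E17 (-1.06), but within 2-fold with median centring (-0.94) and with the deposited log ratios (-0.76).

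**Figure D4:**
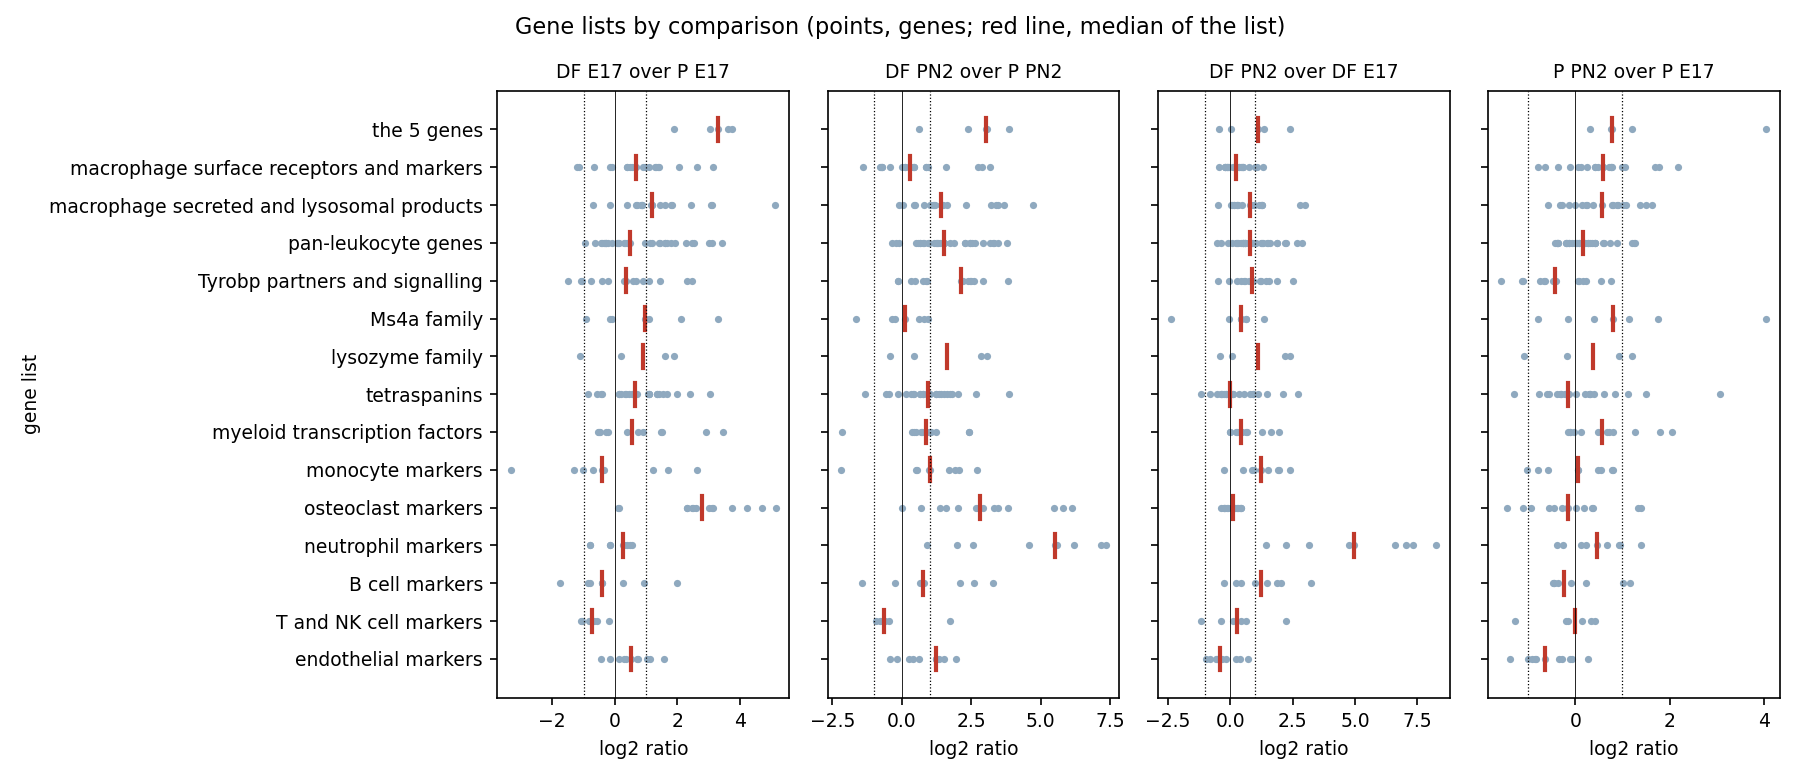
Log2 ratios of the measured genes (points) of 15 lists in the 4 comparisons, with the median of each list as a red line and dotted lines at 2-fold; the x axes differ in range. The median of the 5 genes is 3.31 at E17 and 3.01 at PN2 for follicle over papilla, and neutrophil markers move from 0.25 to 5.52.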

How the data were processed

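RNA of 4 tissue and stage combinations was measured on 2-colour Agilent arrays. Per the file headers, each array's deposited table holds 2 linear signal intensity columns. The scans were quantified in Agilent Feature Extraction 8.5.1.1, per the submitters' processing notes, and no source used here gives the background subtraction. The deposited value table holds log10 ratios, which matched the log signal ratios shifted by 1 constant on each array, to 0.003 (log2), for 99.99% of probes or more. A recurring tissue and stage was identical in 100% of probes. In the file titled P PN2-P E17 the second column is headed DF E17 and equals it, so P E17 came from the file titled DF E17-P E17.

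Signals were turned to log2 without a pseudocount, quantile normalised over 4 columns and averaged over a gene's probes (numpy 2.4.6, pandas 2.3.3). Probes were named by the platform's symbol (25962 of 30146; 25858 matched to RefSeq by gene number). Genes below a highest signal of 100 were left out, and the call was 2-fold. Of the lists, all measured genes of the Tyrobp partner, Ms4a, lysozyme, LAMP and tetraspanin families could be named, and otherwise the 3 highest and 3 lowest of a comparison. The genes and lists were chosen with earlier results of these data known. The steps were tested on simulated data. Alternatives were other scalings, the deposited ratios, the median over probes, a signal floor and other signal minimums. Sequences are from RefSeq, GRCm38.p6. The number of arrays limits the precision. Protein identity, which had been planned, was not computed here.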

Additional observations from a re-analysis of the deposited data

Results flagged for a closer look

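Of 154 macrophage, leukocyte and family genes scanned, 7 lay on opposite sides in the 2 stages or tissues. Each side passed the between-probe SD in the main setting. The share over all genes under this rule was not computed. With 1 column per tissue and stage, none of these differences was tested. For follicle over papilla, Stab1 was at 0.98 at E17 and -1.39 at PN2, Trem1 at -0.75 and 0.90, and Trem3 at -1.05 and 2.13. For PN2 over E17, Trem3 was at 2.51 in the follicle and -0.67 in the papilla, Hcst at 1.90 and -0.75, Btk at 0.89 and -1.12, Lamp1 at 0.53 and -1.41, and Kitl at -0.67 and 0.66. With signals under 37.9 raised to it, Trem3 was at -0.49 at E17 and -0.49 in the papilla and Btk at -0.39 in the papilla, each less in size than the SD of its comparison. Without normalisation Kitl in the papilla was at -0.12, and Lamp1 in the follicle was at 0.44, under its SD of 0.47. Trem1 at PN2 was at 0.59 with median centring and 0.75 with the deposited log ratios, under its SD of 0.76. None of the 5 genes of the report was among them.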

How the results depend on the processing

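Of 145 values of the 5 genes' ratios under alternatives, 134 moved by less than the between-probe SD and 11 by more, and 0 called values turned sign. All 11 came without normalisation. For papilla PN2 over E17 these were Tyrobp 0.072, Cd68 -0.16, Cd53 -0.72, Lyz2 0.32 and Ms4a7 2.88, for follicle over papilla at E17 Cd53 2.36 and Ms4a7 2.70, and for the change between stages Cd68 -0.41, Cd53 1.70, Lyz2 2.00 and Ms4a7 -1.62. Of the 5 genes, 1 was then higher in the papilla at PN2, and the follicle over papilla ratio passed 2-fold towards the follicle from E17 to PN2 for 2 and towards the papilla for 1, the latter pair of counts also with median centring and with the deposited log ratios. Over all genes, no normalisation gave 921 higher and 2685 lower at E17, 2804 higher at PN2, 1357 lower between follicle stages, 127 higher and 4980 lower between papilla stages, and 3301 towards the follicle and 480 towards the papilla. A minimum signal of 200 gave 365 lower between follicle stages.

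Without normalisation, surface genes had 5 higher at E17, 7 higher and 0 lower at PN2, 1 higher between follicle stages, 1 higher and 4 lower between papilla stages, and 3 towards the follicle and 1 towards the papilla. Products had 1 lower at E17, 0 higher and 3 lower between papilla stages, and 6 towards the follicle and 0 towards the papilla. Pan-leukocyte genes had 2 lower at E17, 0 higher and 8 lower between papilla stages, and 23 towards the follicle. With the deposited log ratios, surface genes had 1 lower at E17 and 7 higher and 2 lower at PN2, and products 10 higher between follicle stages and 0 towards the papilla. Median centring gave 3 surface genes lower at PN2 and 0 products towards the papilla. The median over probes gave 1 pan-leukocyte gene lower at PN2 and 1 towards the papilla, a minimum signal of 200 gave 1 surface gene lower at E17, and a minimum of 50 or none gave 2 lower at PN2. Without normalisation all genes had a median of -0.32 at E17, 0.21 at PN2, -0.23 between follicle stages and -0.80 between papilla stages; the cause of the single changes was not tested.

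Of genes past 2-fold at E17, PN2, between follicle stages and between papilla stages, 50.9%, 48.9%, 48.5% and 56.3% were higher in the main setting, 25.5%, 63.3%, 21.2% and 2.49% without normalisation, and 60.9%, 57.4%, 49.8% and 65.8% with the deposited ratios. No paired analysis was possible because each group has 1 column, and for the same reason no replicate was left out in turn.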
